A study of Homo sapiens with 30 samples.

Results

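A set of 10 genes that p53 is known to switch on, and that drive or restrain cell death, were followed across 5 human cell lines treated with elraglusib. They are FAS, TNFRSF10A, TNFRSF10B, TNFRSF10C, TNFRSF10D, BAX, BBC3, PMAIP1, AEN and TP53I3. A gene was measured where a probe set of the array carried its symbol alone, which held for 8 of the 10 genes, out of 22465 genes measured that way in all. The probe set that lists TNFRSF10C also lists LOC254896, and the one that lists BBC3 also lists MIR3190 and MIR3191, so neither of these genes was given a value. Each of the 8 measured genes had 1 such probe set. The data are 30 Human Transcriptome Array 2.0 chips, on which 3 arrays of cells given 1 µM elraglusib (9-ING-41, a small-molecule inhibitor of the kinase GSK-3) for 24 h were set against 3 arrays of cells given the vehicle DMSO in each line. HCT-116, HT-29 and KM12C are colorectal cancer lines, NK-92 is a natural killer cell line, and TALL-104 is a cytotoxic T cell line. The labels and the study's figure legends give that dose, while its results text speaks of IC-50 concentrations. Each group is 1 established line in culture, and replicates are called biological in the labels, so p-values measure the spread between these cultures. The RNA came from whole cultures, so fewer cells of a kind and less RNA per cell cannot be told apart. Of the genes, 4 lie side by side on chromosome 8 (GRCh38.p14), in the order TNFRSF10B, TNFRSF10C, TNFRSF10D and TNFRSF10A, within 205 kb (23020133 to 23225102).

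The p53 protein is a transcription factor that is held at a low level by MDM2 and, once stabilized, binds paired decamers of DNA in the genes it activates. Its death-promoting targets act at the cell surface, where the death receptors FAS, TNFRSF10A (DR4) and TNFRSF10B (DR5) pass on the signals of FAS ligand and TRAIL, and at mitochondria, where BAX forms pores and the BH3-only proteins PMAIP1 (NOXA) and BBC3 (PUMA) relieve the block set by the anti-apoptotic BCL2 proteins. TNFRSF10C and TNFRSF10D bind TRAIL without passing on a full death signal and are known as decoy receptors, AEN is a nuclease that digests DNA and RNA in dying cells, and TP53I3 (PIG3) is an oxidoreductase linked to reactive oxygen species.

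The sequence upstream of 4 of these genes is shown because it differs in how closely it holds the p53 decamer consensus. Each sequence is the 250 bases before a transcription start, on the plus strand of GRCh38.p14, from RefSeq. Capitals mark the best pair of decamers for FAS, AEN and PMAIP1, and mark each CACGTG, the E-box letters (their own reverse complement), for BAX. Only decamers that keep the fixed C and G of the consensus were paired, with a spacer of up to 13 bases. The decamer consensus is its own reverse complement, so the search covers both strands. Windows were matched for 5 of the 10 genes, FAS with 3 starts and the other 4 with 1 start each.
FAS, the third listed start, chr10:88991181-88991430: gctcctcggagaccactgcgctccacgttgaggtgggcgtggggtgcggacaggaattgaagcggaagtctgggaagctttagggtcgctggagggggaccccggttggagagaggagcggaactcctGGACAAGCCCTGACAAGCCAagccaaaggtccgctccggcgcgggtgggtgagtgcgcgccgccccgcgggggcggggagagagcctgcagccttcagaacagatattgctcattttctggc
AEN, chr15:88621090-88621339: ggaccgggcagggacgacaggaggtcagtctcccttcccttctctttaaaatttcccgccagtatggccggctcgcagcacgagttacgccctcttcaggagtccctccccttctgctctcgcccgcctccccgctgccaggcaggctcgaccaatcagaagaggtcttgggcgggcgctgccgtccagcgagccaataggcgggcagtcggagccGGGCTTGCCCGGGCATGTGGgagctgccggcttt
PMAIP1, chr18:59899746-59899995: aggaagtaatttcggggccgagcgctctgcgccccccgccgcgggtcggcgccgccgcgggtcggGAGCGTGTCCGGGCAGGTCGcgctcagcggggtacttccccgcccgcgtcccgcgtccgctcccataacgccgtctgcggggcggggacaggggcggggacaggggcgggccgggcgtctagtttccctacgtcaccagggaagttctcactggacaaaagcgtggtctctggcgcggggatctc
BAX, chr19:48954625-48954874: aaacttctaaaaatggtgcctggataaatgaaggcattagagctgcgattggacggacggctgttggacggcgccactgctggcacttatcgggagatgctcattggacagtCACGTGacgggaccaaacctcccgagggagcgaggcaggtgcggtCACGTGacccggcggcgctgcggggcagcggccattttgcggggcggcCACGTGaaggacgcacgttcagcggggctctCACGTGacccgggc

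The match before AEN ended 15 bases from the start and had 2 mismatches over 20 bases, all in its second decamer. FAS had a match with 2 mismatches that ended 103 bases before the start named above, which lies 633 bases after the first one. The best pairs before the other 2 FAS starts had 4 mismatches, a limit that 30.1 percent of windows met, so the window shown is the one of 3 with the fewest mismatches. Of 35116 such windows of 27305 genes, 2.49 percent held a pair with at most 2 mismatches and 5.57 percent held a decamer with none. The best pair before PMAIP1 had 3 mismatches, a limit that 10.7 percent of windows met. TP53I3 and BAX had best pairs with 5 and 6 mismatches, which 59.1 and 81.2 percent of windows matched or bettered. BAX had 4 copies of CACGTG, and at least 4 were found in 5 of the 35116 windows (0.0142 percent), against at least 1 copy in 6.34 percent. The windows of FAS, AEN, PMAIP1 and TP53I3 held 0 copies. These letters were marked for BAX alone and the limit of 4 is its own count, so that share is set by the gene it describes. The pairs and copies are matches of letters in a short window and do not show that a protein binds there.

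Signals are log2 values as deposited, and array medians lay between 4.23 and 4.6. Probe sets differ in brightness, so levels are compared between lines for a gene and never between genes. Epithelial markers (8 genes such as EPCAM and KRT8) averaged 10.2 to 12.5 in the 18 arrays of the colorectal lines, against 4.98 to 5.36 in the 11 arrays of the lymphoid lines used here. T cell markers averaged 11.0 to 11.1 in 5 TALL-104 arrays and 5.80 to 5.96 in NK-92 arrays. NK cell markers averaged 11.7 to 12.2 in NK-92 arrays, 8.84 to 9.15 in the 5 TALL-104 arrays and 4.19 to 4.74 in the colorectal arrays. A single array stood apart from its label. The array labelled TALL-104 DMSO replicate 2 correlated with the other 5 TALL-104 arrays at r = 0.859 to 0.871 and with the 6 NK-92 arrays at r = 0.988 to 0.993 (Pearson, across 17407 probe sets). It read 3.7 for CD3D, a chain of the T cell receptor complex, against 13.96 to 14.41 on the other TALL-104 arrays and 3.54 to 3.98 on NK-92 arrays. For KLRC1, an NK cell receptor, it read 11.76, against 5.75 to 6.31 and 11.69 to 12.49. That array is left out of all values below unless it is named.

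On that array 7 of the 8 measured genes fell outside the range of the other TALL-104 arrays, and 7 lay closer to the NK-92 mean. Of all 67528 probe sets, 52.5 percent fell outside that range and 70.6 percent lay closer to the NK-92 mean, and of the 17407 with a mean over 6 these shares were 76.8 and 83.6 percent. BAX read 8.64 there, against 10.95 to 11.59 on the other TALL-104 arrays and 8.64 to 8.85 on NK-92 arrays. FAS read 8.62, against 10.43 to 10.82 and 8.52 to 9.11. PMAIP1 was the gene with a higher reading, 9.12 against 8.02 to 8.18 on the other TALL-104 arrays, and 9.47 to 9.87 on NK-92 arrays. AEN, at 8.15, was the gene whose reading stayed inside the TALL-104 range of 8.15 to 8.34.

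**Figure D1:**
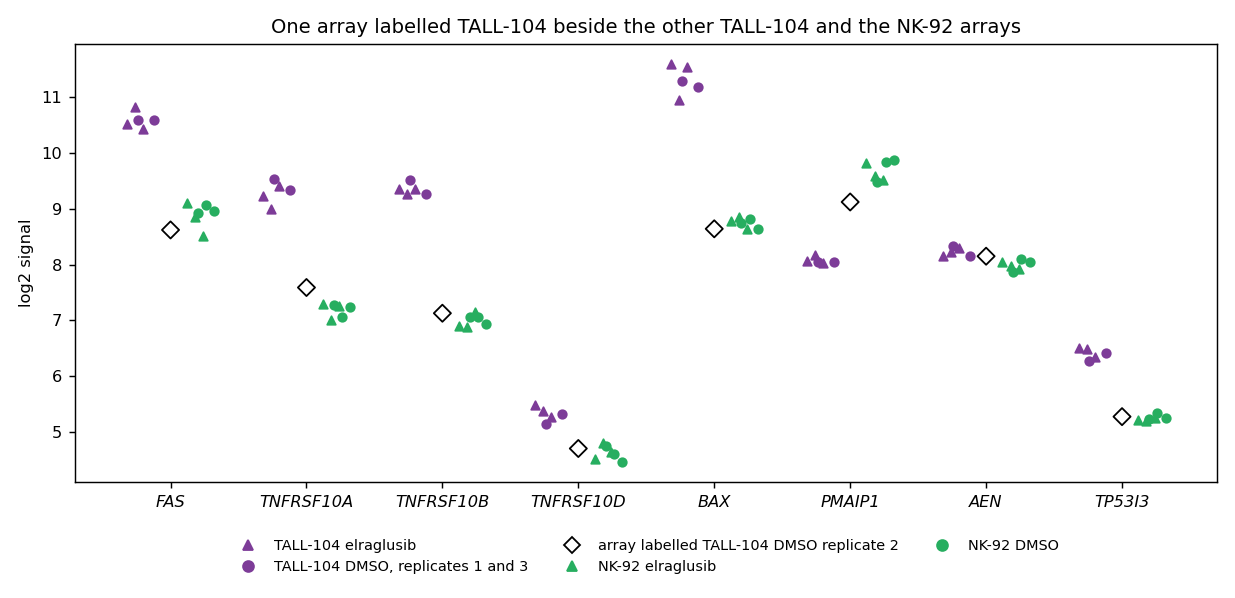
Log2 signal (vertical axis) of the 8 measured genes on the array labelled TALL-104 DMSO replicate 2 (open diamond), on the other 5 TALL-104 arrays and on the 6 NK-92 arrays, 1 mark per array. The diamond lies with the NK-92 marks for FAS, TNFRSF10B, TNFRSF10D, BAX and TP53I3, and between the sets for TNFRSF10A and PMAIP1.

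In HCT-116 cells all 8 measured genes rose with elraglusib, by 0.71 to 1.29 log2 units (1.63- to 2.44-fold). The death receptors FAS and TNFRSF10B, the decoy receptor TNFRSF10D and the BH3-only gene PMAIP1 rose by more than 2-fold and AEN by 2-fold. TP53I3, TNFRSF10A and BAX rose by less. Across all probe sets 0.817 percent were called up in this line (adjusted p under 0.05 in limma, Benjamini-Hochberg over 67528 probe sets), and 1.09 percent of the 22465 named genes were. Of the 8, all but BAX were named by the study from these same arrays, so the count is not independent evidence of the direction.

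Among the surface receptors, FAS measured 8.94, 8.75 and 9.01 in elraglusib-treated HCT-116 cells and 7.48, 7.72 and 7.64 in DMSO-treated cells. The gap between the lowest treated and the highest control array was 1.03, and the difference was 1.29 ± 0.11 (SE, adjusted p = 0.00526). TNFRSF10B, which encodes the TRAIL receptor DR5, measured 11.01, 10.92 and 10.99 with elraglusib and 9.64, 9.84 and 9.84 with DMSO, a rise of 1.20 ± 0.10 (adjusted p = 0.00425). The treated arrays of this gene lay within 0.1 of each other. TNFRSF10A, the other TRAIL receptor of the death-inducing kind, stood at 11.29, 11.21 and 11.22 with elraglusib against 10.46, 10.54 and 10.57 with DMSO. Its rise of 0.72 ± 0.09 (adjusted p = 0.0186) was 1.64-fold. The decoy receptor TNFRSF10D measured 12.15, 11.93 and 11.98 in treated cells and 10.69, 10.9 and 10.81 in control cells, and rose by 1.22 ± 0.10 (adjusted p = 0.00513). Death and decoy receptors thus rose in the same cells, TNFRSF10D by 2.33-fold and TNFRSF10B by 2.30-fold.

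Of the mitochondrial genes, PMAIP1 had the larger difference and the larger spread. It measured 11.55, 11.09 and 11.47 with elraglusib and 10, 10.48 and 10.02 with DMSO, a rise of 1.20 ± 0.17 (adjusted p = 0.03). BAX measured 8.88, 8.76 and 8.9 in treated HCT-116 cells and 8.01, 8.19 and 8.22 in control cells, a rise of 0.71 ± 0.10 (adjusted p = 0.0265). The treated and control arrays did not overlap for either gene, with gaps of 0.61 for PMAIP1 and 0.54 for BAX.

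The nuclease AEN measured 8.98, 8.74 and 8.87 with elraglusib and 7.82, 7.93 and 7.84 with DMSO in HCT-116 cells, a rise of 1.00 ± 0.10 (adjusted p = 0.00944). TP53I3 measured 6.77, 6.76 and 6.8 in treated cells and 5.76, 5.91 and 6.04 in control cells, a rise of 0.87 ± 0.10 (adjusted p = 0.0161). In none of the 8 genes did a treated array overlap a control array, while 10.5 percent of all probe sets had every treated array above every control array. The median difference of the 8 genes was 1.10, against 0.02 over all probe sets.

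Fewer of the 8 genes were called when any 1 of the 6 HCT-116 arrays was left out. The count was 4 without replicate 1 or replicate 2 of either treatment, and 3 without replicate 3 of elraglusib or of DMSO. Over all probe sets, 87 to 148 were called in these fits (0.129 to 0.219 percent), against 779 with all 6 arrays. FAS, TNFRSF10B and TNFRSF10D were called in all 6 of these fits and AEN in 4, while adjusted p was 0.0514 to 0.141 for TNFRSF10A, BAX, PMAIP1 and TP53I3. The differences themselves moved little, FAS between 1.22 and 1.36 and BAX between 0.64 and 0.75.

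**Figure D2:**
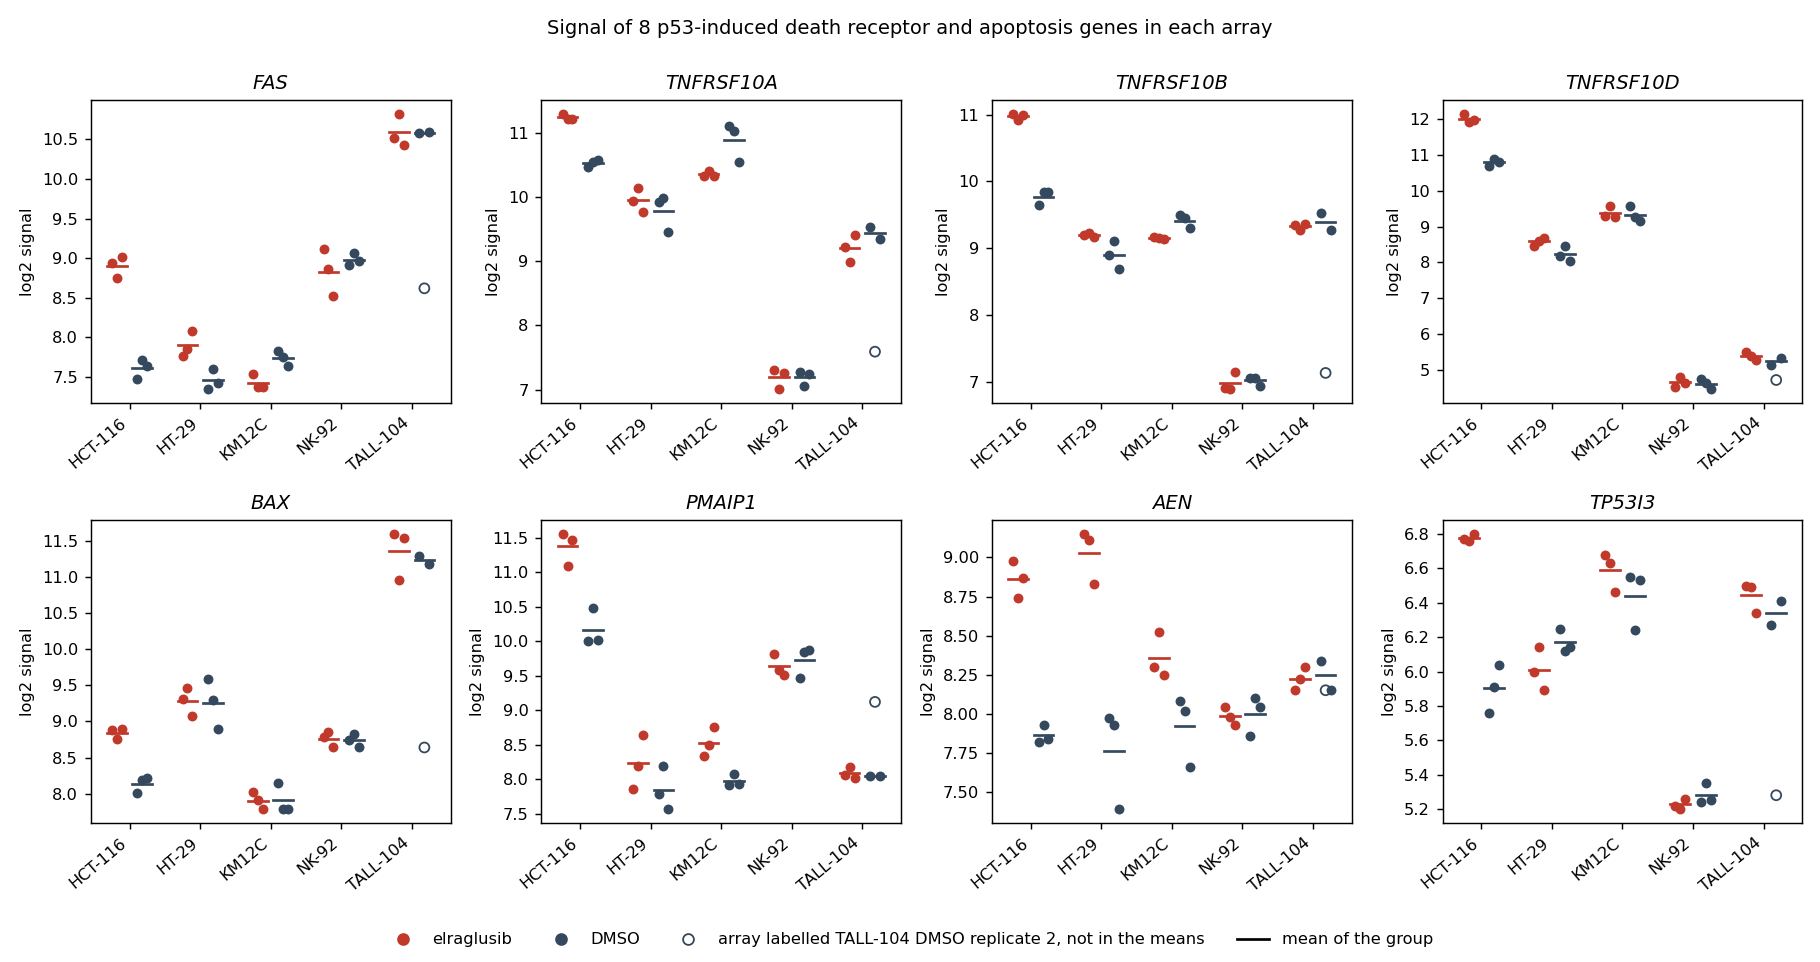
Log2 signal (vertical axes, a separate scale for each gene) of the 8 measured genes on each of the 30 arrays, by cell line, with elraglusib-treated cells in red to the left of DMSO-treated cells in blue. Lines are group means, and the open circle is the array labelled TALL-104 DMSO replicate 2, which is not in them. In HCT-116 cells the treated arrays stand above the control arrays in every panel.

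In HT-29 cells AEN was the gene of the set that rose, and no other passed the test. AEN measured 9.15, 9.11 and 8.83 with elraglusib and 7.97, 7.93 and 7.39 with DMSO, a rise of 1.27 ± 0.18 (2.41-fold, adjusted p = 0.0027). This 1 of 8 genes is to be read against the 4.62 percent of all probe sets called up and the 3.39 percent called down in this line. The study had named AEN as raised in HT-29 cells from these same arrays, so this call is not independent evidence. FAS measured 7.77, 7.86 and 8.08 in treated HT-29 cells and 7.35, 7.6 and 7.42 in control cells, a difference of 0.45 ± 0.13 (adjusted p = 0.08). TNFRSF10B had 9.2, 9.22 and 9.16 with elraglusib against 8.89, 9.1 and 8.68 with DMSO, a difference of 0.30 ± 0.13 (adjusted p = 0.263). Treated arrays lay above control arrays for AEN, FAS and TNFRSF10B, 3 of 8 genes, as they did for 11.9 percent of all probe sets. The differences were 0.35 for TNFRSF10D, 0.38 for PMAIP1, 0.16 for TNFRSF10A, 0.02 for BAX and -0.16 for TP53I3, with adjusted p from 0.205 to 0.984 and overlapping groups. Of the 8 genes, 4 had an unadjusted p under 0.05, against 18.5 percent of all probe sets.

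In KM12C cells none of the 8 genes passed the test, in a line where 0.603 percent of probe sets were called up and 0.894 percent down (1011 probe sets). The number of calls in this line rested on single arrays, with 7265 probe sets called without DMSO replicate 3, 195 without DMSO replicate 1, and 331 to 385 without each of the other 4 arrays. The surface death receptors lay on the low side of their controls. FAS measured 7.54, 7.37 and 7.37 with elraglusib and 7.83, 7.75 and 7.64 with DMSO (difference -0.31 ± 0.12, adjusted p = 0.223). TNFRSF10A measured 10.33, 10.41 and 10.32 in treated cells against 11.1, 11.02 and 10.55 in control cells (difference -0.54 ± 0.16, adjusted p = 0.141). TNFRSF10B had 9.17, 9.15 and 9.13 with elraglusib and 9.49, 9.45 and 9.3 with DMSO (difference -0.26 ± 0.11, adjusted p = 0.272). For these 3 genes every treated array was below every control array, as for 7.33 percent of all probe sets. Without DMSO replicate 3, the lowest of the control values of TNFRSF10A, that gene was called (difference -0.71, adjusted p = 0.0153), in a fit that called 10.8 percent of all probe sets.

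PMAIP1 and AEN lay on the other side in KM12C cells. PMAIP1 measured 8.34, 8.5 and 8.75 with elraglusib and 7.92, 8.08 and 7.93 with DMSO (difference 0.55 ± 0.14, adjusted p = 0.0913). AEN measured 8.3, 8.52 and 8.25 in treated cells and 8.08, 8.02 and 7.66 in control cells (difference 0.44 ± 0.15, adjusted p = 0.19). These were the 2 genes with every treated array above every control array, against 14.5 percent of probe sets. TNFRSF10D, BAX and TP53I3 differed by 0.04, 0.00 and 0.15, with overlapping arrays. Of the 8 genes, 5 had an unadjusted p under 0.05, against 17.5 percent of all probe sets.

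In the lymphoid lines no gene of the set passed the test. In NK-92 cells the 8 differences lay between -0.15 and 0.04. Over the 8 genes, the lowest limit of a 95% confidence interval was -0.52 (FAS) and the highest 0.33 (TNFRSF10D). In TALL-104 cells, with 3 treated and 2 control arrays, the differences lay between -0.23 and 0.15. The lowest limit there was -0.62 (TNFRSF10A) and the highest 0.65 (BAX). Treated and control arrays overlapped for all 8 genes in both lines. No probe set at all was called in either line by limma (0 percent), while an unadjusted p under 0.05 was met by 4.34 percent of probe sets in NK-92 cells, by 5.12 percent of those in TALL-104 cells, and by none of the 8 genes in either. FAS showed the widest spread in NK-92 cells, with 9.11, 8.86 and 8.52 after elraglusib and 8.92, 9.07 and 8.96 after DMSO. With the array labelled TALL-104 DMSO replicate 2 kept, the TALL-104 differences ran from -0.32 for PMAIP1 to 0.99 for BAX, and none was called (lowest adjusted p = 0.823).

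At the thresholds of the study's methods, a fold change beyond 1.5 with an unadjusted p under 0.05, the members past them numbered 8 in HCT-116, 1 in HT-29, 0 in KM12C, 0 in NK-92 and 0 in TALL-104 cells. The shares of all probe sets past them were 2.51 percent (HCT-116), 8.37 percent (HT-29), 5.59 percent (KM12C), 0.801 percent (NK-92) and 1.2 percent (TALL-104).

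**Figure D3:**
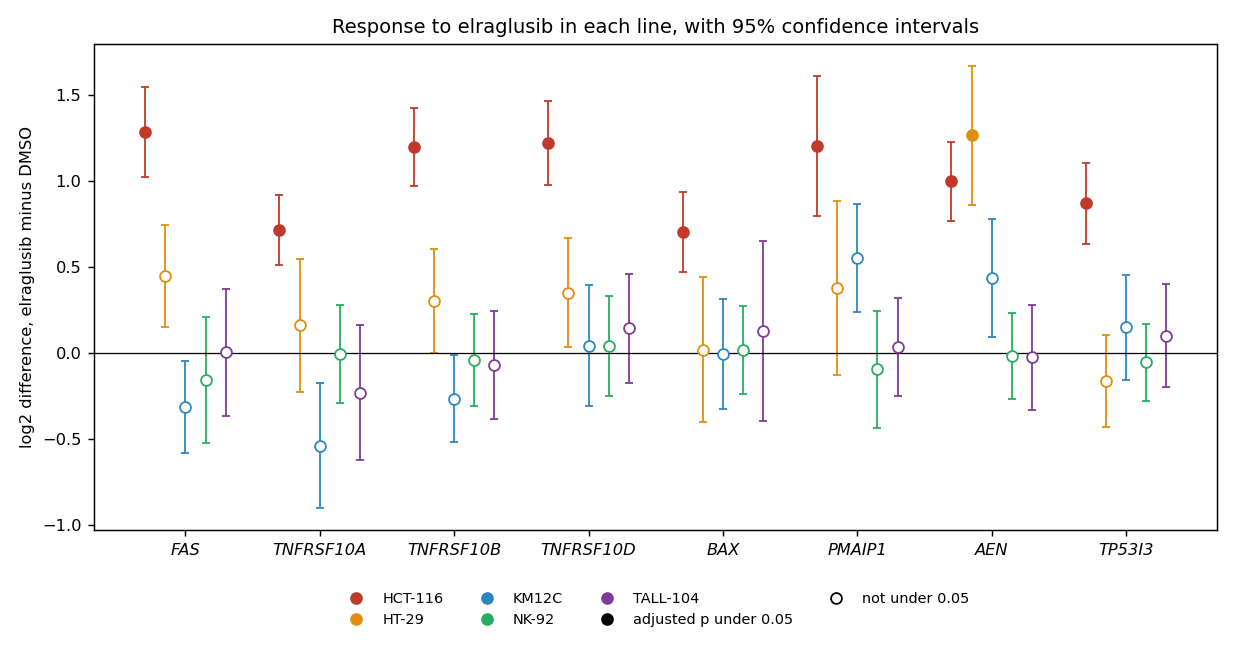
Difference in log2 signal, elraglusib minus DMSO (vertical axis), of each gene in each line, with 95% confidence intervals from limma, and filled marks where the adjusted p is under 0.05. The 8 HCT-116 marks, from 0.71 to 1.29, and the HT-29 mark of AEN, at 1.27, are the filled ones.

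Whether the responses differed between lines was tested directly, as a contrast of the treatment effects over 29 arrays for all 10 pairs of lines. Of the 80 tests of the 8 genes, 25 were called, where 2.58 percent of tests over all probe sets were. In all 25 the response was the more positive one in HCT-116, or in HT-29 where that line was set against KM12C, NK-92 or TALL-104. FAS, TNFRSF10B and AEN had 5 calls each, TNFRSF10D and TP53I3 had 4 each, TNFRSF10A and PMAIP1 had 1 each, and BAX had 0. When the array labelled TALL-104 DMSO replicate 2 was kept, 10 of the 80 tests were called, against 1.74 percent over all probe sets.

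HCT-116 and HT-29 cells differed in the response of 4 of the 8 genes, where 3.07 percent of probe sets were called with the higher response in HCT-116. TP53I3 had the largest of these differences, 1.03 (95% CI 0.75 to 1.32, adjusted p = 1.49e-05), with a rise in HCT-116 cells and a difference of -0.16 in HT-29 cells. TNFRSF10B differed by 0.90 (0.60 to 1.19, adjusted p = 0.000158), TNFRSF10D by 0.87 (0.49 to 1.24) and FAS by 0.84 (0.46 to 1.22). The response of AEN differed by -0.27 (-0.66 to 0.13, adjusted p = 0.622), an interval that includes 0. TNFRSF10A, BAX and PMAIP1 did not pass the test (adjusted p = 0.136, 0.0765 and 0.0601).

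Against KM12C cells, HCT-116 cells had the higher response for 5 of the 8 genes, with 1.49 percent of probe sets called that way. All measured receptors were among them. FAS differed by 1.60 (1.22 to 1.98, adjusted p = 1.02e-05), TNFRSF10B by 1.46 (1.17 to 1.76), TNFRSF10A by 1.25 (0.83 to 1.68) and TNFRSF10D by 1.18 (0.80 to 1.55). TP53I3 differed by 0.72 (0.44 to 1.01, adjusted p = 0.00398). PMAIP1 and AEN, which stood above their controls in KM12C cells too, differed by 0.65 (0.12 to 1.18) and 0.56 (0.17 to 0.96) and were not called.

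The contrast of HCT-116 with the lymphoid lines gave 6 calls against NK-92 (0.357 percent of probe sets) and 5 against TALL-104 cells (0.307 percent). FAS, TNFRSF10B, TNFRSF10D, AEN and TP53I3 were called against both, with differences of 0.93 to 1.44 against NK-92 and 0.77 to 1.28 against TALL-104. Some control levels lay near the array medians (4.23 to 4.6), so responses there may be understated. These were TNFRSF10D in NK-92 (4.61) and TALL-104 cells (5.23), and TP53I3 in NK-92 cells (5.28). PMAIP1 was called against NK-92 (1.30, adjusted p = 0.0161) and not against TALL-104 cells (1.17, adjusted p = 0.0626). BAX differed by 0.69 (0.22 to 1.15) and 0.58 (0.08 to 1.07), and neither was called (adjusted p = 0.266 and 0.523).

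HT-29 set against KM12C gave 3 calls, where 2.24 percent of probe sets were called that way: AEN at 0.83 (0.43 to 1.23, adjusted p = 0.0126), FAS at 0.76 (0.38 to 1.14) and TNFRSF10B at 0.57 (0.27 to 0.86). FAS and TNFRSF10B had passed the test in neither line alone, and lay above their controls in HT-29 and below them in KM12C cells. AEN was the gene called between HT-29 and NK-92 (1.28, 0.89 to 1.68) and between HT-29 and TALL-104 (1.29, 0.87 to 1.71), 1 of 8 in each, with 2.87 and 2.92 percent of probe sets called with the higher response in HT-29. KM12C against NK-92, KM12C against TALL-104 and NK-92 against TALL-104 gave 0 calls.

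**Figure D4:**
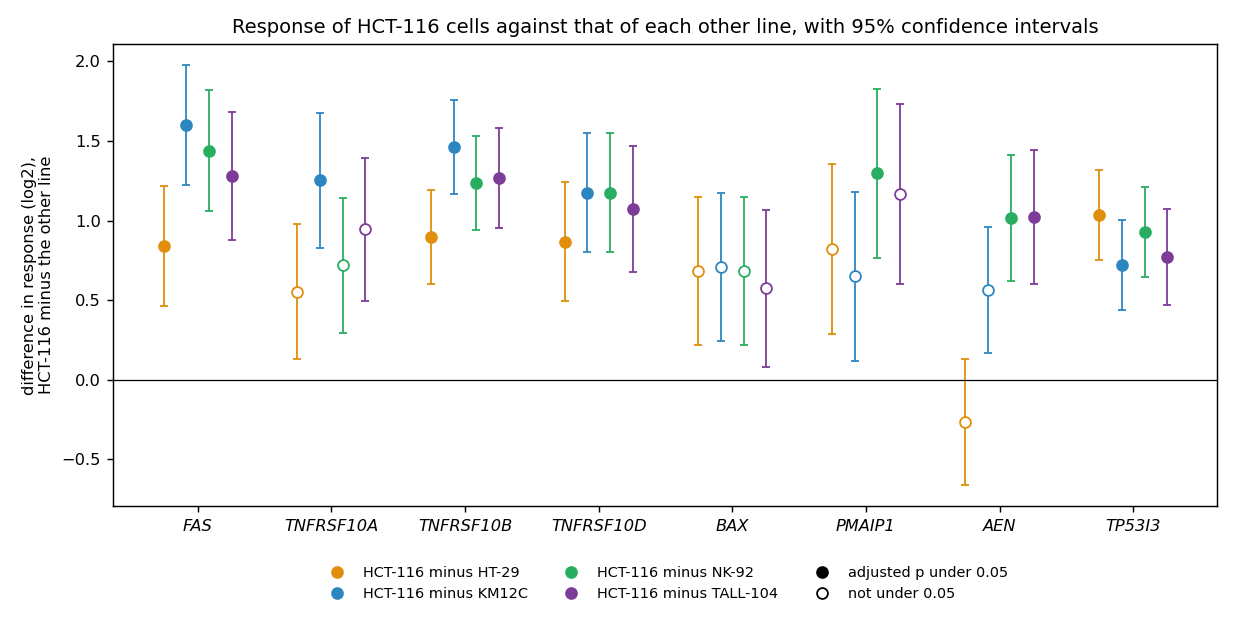
Difference between the response of HCT-116 cells and that of each other line (vertical axis, log2 units, HCT-116 minus the other line), with 95% confidence intervals from the fit over 29 arrays and filled marks where the adjusted p is under 0.05. AEN against HT-29, at -0.27, is the mark below 0, and none of the 4 BAX marks is filled.

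The levels in DMSO-treated cells differed between lines for most of the set. Of the 80 tests, 56 were called, against 26.7 percent over all probe sets. With the array labelled TALL-104 DMSO replicate 2 kept, 48 were called, against 22.7 percent. The TNFRSF10D readings of HCT-116 and NK-92 cells lay 6.19 log2 units apart. It averaged 10.80 ± 0.11 in HCT-116, 9.33 ± 0.23 in KM12C, 8.23 ± 0.22 in HT-29, 5.23 ± 0.13 in TALL-104 and 4.61 ± 0.15 in NK-92 cells (SD, n = 3, and n = 2 in TALL-104), and all neighbours in this order differed. In NK-92 cells it was close to the array medians, so differences from that line may be understated. The death receptors of TRAIL were lowest in NK-92 cells too. TNFRSF10B averaged 9.77 in HCT-116, 9.41 in KM12C, 9.40 in TALL-104, 8.89 in HT-29 and 7.02 in NK-92 cells, where the step between KM12C and TALL-104 did not pass the test (adjusted p = 0.92). TNFRSF10A averaged 10.89 in KM12C, 10.52 in HCT-116, 9.78 in HT-29, 9.44 in TALL-104 and 7.19 in NK-92 cells, and KM12C from HCT-116 and HT-29 from TALL-104 were not told apart (adjusted p = 0.0805 and 0.117).

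FAS and BAX had another order, with TALL-104 cells on top. FAS averaged 10.59 ± 0.01 in TALL-104 cells (n = 2) and 8.98 ± 0.08 in NK-92 cells, above 7.74 ± 0.10 in KM12C, 7.61 ± 0.12 in HCT-116 and 7.46 ± 0.13 in HT-29 cells (n = 3), and the colorectal lines were not told apart as neighbours (adjusted p = 0.623 and 0.56). Elraglusib brought FAS in HCT-116 cells to 8.90 ± 0.13. BAX averaged 11.23 in TALL-104, 9.26 in HT-29, 8.74 in NK-92, 8.14 in HCT-116 and 7.91 in KM12C cells, with all steps called except the last (adjusted p = 0.407).

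PMAIP1 was highest in HCT-116 (10.17 ± 0.27) and NK-92 cells (9.73 ± 0.22), which were not told apart (adjusted p = 0.0744), and averaged 8.05 in TALL-104, 7.98 in KM12C and 7.85 in HT-29 cells, whose steps were not called. TP53I3 had steps of 0.10 to 0.27 among KM12C (6.44), TALL-104 (6.34), HT-29 (6.17) and HCT-116 cells (5.90) that were not called, and a called step to NK-92 cells (5.28, adjusted p = 1.06e-05). Lines further apart in that order did differ, HCT-116 from KM12C by -0.54 (adjusted p = 0.000123) and HCT-116 from TALL-104 by -0.44 (adjusted p = 0.00242). AEN was nearly level. It averaged between 7.76 in HT-29 and 8.25 in TALL-104 cells, no neighbours differed, and 1 of its 10 pairs of lines was called.

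The 4 lists of related genes were chosen with earlier results of these data known, and describe genes around the set. The study had named MDM2 and TP53INP1 as raised in HCT-116 cells from these same arrays, so their calls below are not independent evidence. Of 7 measured regulators of p53, 2 rose in HCT-116 cells, MDM2 (2.08 ± 0.10, adjusted p = 0.000475), which marks p53 for degradation and is itself a p53 target, and the phosphatase PPM1D (1.74 ± 0.09). ATM, CHEK2 and USP7 had differences of 0.08, -0.29 and 0.01. In HT-29 cells 2 of the 7 rose and 1 fell, and in KM12C cells none was called. MDM2 rose by 0.65 ± 0.14 in HT-29 cells (adjusted p = 0.0198). Of 12 other p53-induced apoptosis genes, 4 rose in HCT-116, 1 in HT-29 and 1 in KM12C cells, and none fell. TP53INP1 (1.98), TRIAP1 (1.65) and RPS27L (1.30) had the smallest adjusted p in HCT-116 cells. TRIAP1 is an inhibitor of apoptosis, and it was also the gene called in HT-29 (0.82) and KM12C cells (0.80). The median difference of this list in HCT-116 cells was 0.29, against 0.02 over all probe sets.

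Genes that the members act with had no calls in HCT-116 cells. None of 8 measured death ligands and signalling genes was called there, and FADD, the adaptor of FAS and the TRAIL receptors, differed by -0.12 and the initiator CASP8 by 0.29. In HT-29 cells 2 of the 8 fell and in KM12C cells 1 fell. TNFSF10, which encodes the ligand TRAIL and was chosen here after its values were seen, fell by 2.06 log2 units in HT-29 (adjusted p = 4.62e-05) and by 0.93 in KM12C cells (adjusted p = 0.0145), and its difference was 0.16 ± 0.19 in HCT-116 cells. Of 17 measured genes of the BCL2 family and the mitochondrial pathway none was called in HCT-116 cells, with a median of 0.08, and none in KM12C cells. In HT-29 cells 5 of them fell and 1 rose. BAK1, which the study lists among the genes raised in HCT-116 cells, differed by 0.45 ± 0.13 in that line (adjusted p = 0.181). The study used a fold change and an unadjusted p for its list. The counts of these lists stand beside 0.817 percent of all probe sets called up in HCT-116, 4.62 percent up and 3.39 percent down in HT-29, and 0.603 percent up and 0.894 percent down in KM12C cells. With shares this low in HCT-116 and KM12C cells, a count of 0 does not set a list apart. The genes that fell in HT-29 cells include MCL1 (-0.49), an anti-apoptotic BCL2 protein that PMAIP1 binds, the BH3-only genes BCL2L11 (-0.62) and BMF (-0.63), and APAF1 (-1.05), the core of the apoptosome, also named after their values were seen. No gene of the 4 lists was called in NK-92 or TALL-104 cells.

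The genes whose pattern was most like that of 4 members were found by Pearson correlation over the 10 group means (5 lines with either treatment), among 10769 genes that spanned at least 1 log2 unit. This is a description over points that share arrays and lines. GADD45A, a p53-induced stress gene, was closest to TNFRSF10B (r = 0.993), and rose by 1.60 in HCT-116 cells (adjusted p = 0.00555). The next closest, ZNF384 (0.974) and RAB18 (0.968), differed there by 0.14 and 0.16 (adjusted p = 0.657 and 0.743). TNFRSF10D was followed by ASAH2B (0.991), GDF15 (0.989) and BCYRN1 (0.989). Of these GDF15, which encodes a secreted stress cytokine, rose by 2.92 in HCT-116 cells, while ASAH2B differed by 0.08 and BCYRN1 by 0.20 there. The study had named both GADD45A and GDF15 as raised in HCT-116 cells from these same arrays, so their rises are not independent evidence. USP15 (0.975), TRIP4 (0.974) and CYLD (0.966) were closest to FAS, and SMNDC1 (0.977), H1-6 (0.973) and FCF1 (0.972) to PMAIP1.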

How the data were processed

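The arrays were Human Transcriptome Array 2.0 chips of 5 cell lines, 30 in all. The authors deposited log2 signals of 67528 probe sets, made with the Transcriptomic Analysis Console, whose version, normalization and background steps were not given in the sources used here. Per the study's methods, arrays were run in 2 batches of randomized samples. RNA was isolated in batches of 6, which is also the number of arrays per line. Neither batch is given for single arrays in the sources used here, so the part of batch was not tested. Whether the RNA batches follow the lines is not given either. The signals were taken as they stand, unfiltered and without further normalization. Depth does not apply to arrays, and their number per group limits the precision.

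The members and gene lists were chosen with earlier results of these data known. Symbols came from the platform annotation, in which 23781 probe sets have 1 symbol, 1543 several and 42204 none, and the probe set with the highest mean stood for a gene. Separate fits per line used limma 3.58.1 (R 4.3.3; lmFit and eBayes with default settings) with treatment as the single term and Benjamini-Hochberg adjustment over all probe sets. A call, and the words rose and fell, mean an adjusted p under 0.05. TALL-104 DMSO replicate 2 was left out of all main fits, as the rule of the gene set states. Contrasts between lines used a fit over 29 arrays with 1 coefficient for each combination of line and treatment. Of each list, at most 3 called genes with the smallest adjusted p in HCT-116 cells are named by rule, and any further gene of a list was picked with its values known. Marker lists were EPCAM, CDH1, KRT8, KRT18, KRT19, CDX2, VIL1 and LGALS4 for epithelium, CD3D, CD3E, CD3G, CD8A and CD8B for T cells, and NCAM1, NCR1, NCR3, KLRC1 and KLRD1 for NK cells.

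The alternatives were quantile normalization, a filter on probe sets under the 40th percentile of mean signal, eBayes with trend and robust fitting, array weights, a fit over all arrays, a replicate block, leaving out each array, the thresholds of the methods (fold change beyond 1.5, unadjusted p under 0.05), and TALL-104 DMSO replicate 2 kept. Replicate numbers were checked for pairing by the correlation of deviations from group means. The fits were tested on simulated data. Promoter windows and gene coordinates came from RefSeq (GRCh38.p14).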

Additional observations from a re-analysis of the deposited data

Results flagged for a closer look

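The response to elraglusib differed between lines in 25 tests of the contrast itself (limma, adjusted p under 0.05), and their values are given here as log2 differences of responses. The genes were chosen with earlier results of these data known, so the count is not independent evidence. For HCT-116 minus HT-29 these were 0.84 for FAS, 0.90 for TNFRSF10B, 0.87 for TNFRSF10D and 1.03 for TP53I3. For HCT-116 minus KM12C they were 1.60 for FAS, 1.25 for TNFRSF10A, 1.46 for TNFRSF10B, 1.18 for TNFRSF10D and 0.72 for TP53I3. For HCT-116 minus NK-92 they were 1.44 for FAS, 1.24 for TNFRSF10B, 1.18 for TNFRSF10D, 1.30 for PMAIP1, 1.02 for AEN and 0.93 for TP53I3. For HCT-116 minus TALL-104 they were 1.28 for FAS, 1.27 for TNFRSF10B, 1.07 for TNFRSF10D, 1.02 for AEN and 0.77 for TP53I3. HT-29 minus KM12C gave 0.76 for FAS, 0.57 for TNFRSF10B and 0.83 for AEN. AEN also differed for HT-29 minus NK-92, by 1.28, and for HT-29 minus TALL-104, by 1.29. Groups of 3 arrays are too small for a test of single outlying arrays.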

How the results depend on the processing

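In HCT-116 cells 8 of 8 genes were called under quantile normalization, the filter on dim probe sets (40517 kept, all 8 genes among them), trend and robust fitting, array weights, the fit over all arrays and the thresholds of the methods. The shares of all probe sets called were 2.12, 3.32 (of those kept), 1.94, 2.3, 2.13 and 2.51 percent in that order, against 1.15 percent in the main comparison. With an array left out 3 to 4 genes were called (0.129 to 0.219 percent of all probe sets). With the replicate block 3 were called (0.155 percent of all probe sets, against 1.15 percent without it), FAS, TNFRSF10B and TNFRSF10D, and TNFRSF10A, BAX, PMAIP1, AEN and TP53I3 were not (adjusted p = 0.132, 0.148, 0.125, 0.0791 and 0.0977). Same-numbered arrays correlated at -0.48 to -0.17 in HCT-116, 0.03 to 0.21 in HT-29 and -0.07 to 0.11 in KM12C cells. The values were -0.14 to 0.14 in NK-92 and -0.01 to 0.36 in TALL-104 cells. With at most 3 pairs per line, these correlations cannot decide whether the numbers pair the samples. The block changed no call of a member in the other lines. In HT-29 cells 2 genes were called with array weights and with the fit over all arrays, FAS beside AEN (12.8 and 11.7 percent of all probe sets, against 8.01 percent in the main comparison). With each array left out 1 gene was called there (5.1 to 7.39 percent). In KM12C cells 2 were called with array weights (12.6 percent of all probe sets, against 1.5 percent), TNFRSF10A at -0.67 and PMAIP1 at 0.52. With the fit over all arrays 1 was called there, TNFRSF10A (6.72 percent), and 0 to 1 with an array left out (0.289 to 10.8 percent). Of the contrasts of responses 25 were called (2.58 percent over all probe sets). The count was 10 with TALL-104 DMSO replicate 2 kept (1.74 percent) and 22 to 29 with an array left out (2.04 to 3.76 percent). Of DMSO levels 54 to 58 were called with an array left out (24.4 to 28.8 percent), against 56 in the main comparison (26.7 percent). The cause of these shifts was not tested.

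Signs turned only for differences that were not called. With array weights these were BAX in HT-29 (-0.10), TNFRSF10D in KM12C (-0.033), FAS (0.0005) and TNFRSF10A (0.026) in NK-92, and FAS in TALL-104 (-0.032). Quantile normalization turned BAX in KM12C (0.036) and NK-92 (-0.0021), and the replicate block FAS (-0.11) and PMAIP1 (-0.01) in TALL-104. Keeping TALL-104 DMSO replicate 2 turned TNFRSF10A (0.39), TNFRSF10B (0.69), PMAIP1 (-0.32) and AEN (0.01) there. With an array left out, differences in HT-29 lay between -0.0033 and 0.26 for TNFRSF10A and between -0.16 and 0.18 for BAX. In KM12C they lay between -0.053 and 0.17 for TNFRSF10D and between -0.063 and 0.12 for BAX. NK-92 gave -0.29 to 0.0017 for FAS, -0.07 to 0.087 for TNFRSF10A, -0.12 to 0.0083 for TNFRSF10B, -0.032 to 0.11 for TNFRSF10D, -0.028 to 0.078 for BAX and -0.087 to 0.033 for AEN. TALL-104 gave -0.11 to 0.085 for FAS, -0.19 to 0.057 for TNFRSF10B, -0.01 to 0.07 for PMAIP1 and -0.12 to 0.073 for AEN. No gene had a further probe set of its own, so the choice among probe sets gave no other value.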
